A study of Homo sapiens with 8 samples.

Results

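The genes described here encode 10 stand-alone RNA pseudouridine synthases, PUS1, PUS3, PUS7, PUS7L, TRUB1, TRUB2, RPUSD1, RPUSD2, RPUSD3 and RPUSD4. They are listed by name, and all 10 were found by Ensembl identifier among the 64253 genes counted in each library. RNA-seq was performed on colon cancer cells in 4 groups with 2 replicates each. The first group was HCT-8, a colon carcinoma line of human origin that responds to 5-fluorouracil (5-FU), and another was HCT-8/FU, a resistant line derived from it. The remaining groups were HCT-8 cells cultured in conditioned medium (CM), collected after 48 h from HCT-8 (CM of HCT-8, here parental CM) or from HCT-8/FU (CM of HCT-8/FU, here resistant CM). HCT-8/FU is a single derived line, none of the labels gives a 5-FU treatment of the sequenced cells, and nothing in the sources states whether replicates were separate cultures, so that the p-values measure only the spread between these libraries.

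Pseudouridine synthases rotate a uridine already built into RNA and join its ring to the sugar through carbon instead of nitrogen. The drug 5-FU is incorporated into RNA as 5-fluorouridine, and these enzymes can bind to the altered base at their target sites, which places them among the known RNA-level targets of the drug. Each stand-alone enzyme recognises its own sites, whereas dyskerin (DKC1) is directed to uridines of ribosomal and small nuclear RNA by box H/ACA guide RNAs, some of which reside in the Cajal body.

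Counts on genes lay between 5804124 and 34881349 per library. HCT-8 replicate 1, HCT-8/FU replicate 2 and parental CM replicate 1 were the shallowest libraries, and between 20.0% and 29.6% of their records were not aligned, against 3.58% to 4.43% in the other libraries. The relation of gene levels to exonic GC content was not the same in all libraries. Its Spearman correlation, taken over genes with each library's departure from the average, ran from −0.488 in HCT-8/FU replicate 1 to 0.534 in parental CM replicate 2, and genes are not independent replicates. Among markers of colon epithelium, 8 of 8 were counted in every library, with a summed level of 9305 to 11601 CPM, although CEACAM5 stayed at 0.836 CPM or less. The summed level was at most 22.1 CPM for 4 fibroblast markers, 2.45 CPM for 3 endothelial markers and 1.86 CPM for 4 leukocyte markers, with COL1A2, PTPRC and CD3E at 0 in all libraries. In bulk RNA, fewer cells that express a gene and less RNA per cell cannot be told apart.

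The sequences before the transcription starts of PUS7 and TRUB1 are shown because these genes were higher in HCT-8/FU, those of RPUSD4 and TRUB2 because they were lower there, and that of PUS3 because it shares a motif with TRUB1. Each line gives 250 bases before the start in RefSeq (GRCh38.p14), on the strand of the gene, and 8 of the 10 genes were matched in this set, PUS7L and PUS1 not among them. Capitals mark the E-box CACGTG or the ZNF143 motif, letters that this transcription factor is known to bind, both searched on both strands.
PUS7, chr7:105522272-105522521, minus strand: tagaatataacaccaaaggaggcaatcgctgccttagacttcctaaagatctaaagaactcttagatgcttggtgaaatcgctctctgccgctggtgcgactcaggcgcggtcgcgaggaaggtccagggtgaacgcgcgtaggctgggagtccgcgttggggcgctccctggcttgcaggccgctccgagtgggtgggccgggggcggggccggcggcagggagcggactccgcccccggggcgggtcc
TRUB1, chr10:114937945-114938194, plus strand: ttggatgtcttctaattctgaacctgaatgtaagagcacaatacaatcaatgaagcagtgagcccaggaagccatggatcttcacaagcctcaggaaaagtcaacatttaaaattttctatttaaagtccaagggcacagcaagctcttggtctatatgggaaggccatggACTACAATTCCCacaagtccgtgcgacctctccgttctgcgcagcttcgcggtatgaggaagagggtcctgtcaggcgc
PUS3, chr11:125903207-125903456, minus strand: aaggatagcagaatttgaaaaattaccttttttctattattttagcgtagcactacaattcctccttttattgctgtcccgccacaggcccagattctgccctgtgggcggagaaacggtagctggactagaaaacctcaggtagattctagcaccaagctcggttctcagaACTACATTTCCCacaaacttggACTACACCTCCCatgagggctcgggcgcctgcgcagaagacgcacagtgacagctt
TRUB2, chr9:128322448-128322697, minus strand: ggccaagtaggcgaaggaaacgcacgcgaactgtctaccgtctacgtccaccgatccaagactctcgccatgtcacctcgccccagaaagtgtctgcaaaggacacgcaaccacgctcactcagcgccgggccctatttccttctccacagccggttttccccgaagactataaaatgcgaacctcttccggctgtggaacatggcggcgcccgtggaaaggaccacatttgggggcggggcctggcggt
RPUSD4, chr11:126211651-126211900, minus strand: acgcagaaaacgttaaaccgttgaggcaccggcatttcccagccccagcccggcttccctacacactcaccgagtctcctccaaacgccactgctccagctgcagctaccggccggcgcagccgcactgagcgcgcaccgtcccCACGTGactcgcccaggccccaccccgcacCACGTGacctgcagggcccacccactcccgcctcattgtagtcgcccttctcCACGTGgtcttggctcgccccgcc
The ZNF143 motif occurred once before TRUB1 and at 2 places before PUS3, and 1.67% of 35116 promoter windows of the same length held it at least once. RPUSD4 held the E-box at 3 places, whereas 6.34% of all windows held it once or more and 0.0797% held it 3 times or more. Neither motif was present before PUS7 or in either of 2 entries of TRUB2, the first of which is shown. Also searched were the CRE (TGACGTCA), the NRF1 motif, the CCAAT box (CCAAT) and the GC box (GGGCGG), which 1.65%, 1.03%, 32% and 42.6% of all windows held. Of the 9 entries of the matched members, 0 held the CRE, 0 the NRF1 motif, 2 the CCAAT box and 6 the GC box, with 3 GC boxes before PUS7 and 0 before TRUB1 and RPUSD4. These matches are letters in a window and give no measurement of binding.

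Levels were expressed as CPM, the count of a gene brought to a common library total, with libraries scaled by edgeR's TMM method. To compare different genes, CPM was divided by the exonic length of the gene in GENCODE 44. On this length-scaled measure RPUSD1, a less studied member of the RluA family, was the highest of the 10 genes in every group, with 19.2 CPM per kb in HCT-8. PUS7L, a paralog of PUS7 in the TruD family, was the lowest in every group, with 0.591 CPM per kb in HCT-8. In HCT-8 the order between them was RPUSD4 (14.2), TRUB2 (10.3), PUS7 (8.69), PUS1 (6.59), TRUB1 (6.55), RPUSD2 (5.65), RPUSD3 (4.01) and PUS3 (2.81 CPM per kb). Of these neighbours, only PUS1 and TRUB1 overlapped between libraries. In HCT-8/FU, PUS7 (14.7 CPM per kb) and TRUB1 (12.3 CPM per kb) followed RPUSD1 directly, ahead of RPUSD4 (10.6 CPM per kb). The exonic length used for PUS7L, 14014 bases over all transcripts, was the largest of the 10, and the lengths in the authors' annotation may differ.

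**Figure D1:**
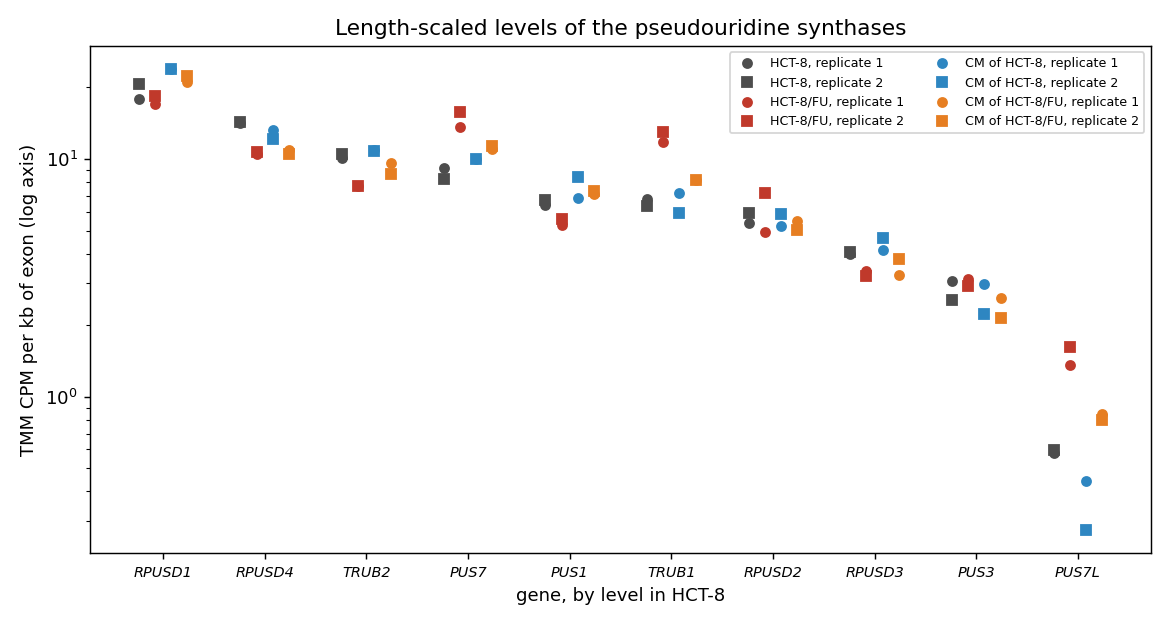
Level of each pseudouridine synthase in every library, as TMM-normalized CPM per kb of exon on a log axis. Genes are ordered by their level in HCT-8, circles are replicate 1 and squares replicate 2, and PUS7 and TRUB1 moved up in HCT-8/FU to 14.7 and 12.3 CPM per kb.

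The first comparison addresses what distinguishes 5-FU-resistant HCT-8/FU cells from HCT-8. PUS7L, TRUB1 and PUS7 were significantly increased in HCT-8/FU, by 2.47-, 1.88- and 1.69-fold, and no member was significantly decreased at the fold threshold. A gene was called differentially expressed (DE) when its FDR did not exceed 0.05 and its log2 fold change reached 0.58 in size. Adjusted p-values are Benjamini-Hochberg values over 20305 tested genes, all 10 members included, from the quasi-likelihood test of edgeR on all 8 libraries. DE and higher were 3 of the 10 members, against 13.2% of all tested genes, and DE and lower were 0 of 10, against 8.12%. In either direction the background was 21.3%, and at the FDR alone 5 of the 10 members passed against 36.7%, so that these counts lie near what all genes show. At an unadjusted p under 0.05, 3 members were higher and 3 lower (edgeR), and DESeq2 also called 0 members DE and lower. The share of all tested genes at this unadjusted p was not counted, here or for the comparisons below. The median log2 fold change of the members was −0.07, beside 0.01 for all tested genes.

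PUS7L (ENSG00000129317) lies on the minus strand of chromosome 12, from 43718992 to 43758793 in GRCh38. Its levels were 8.16 and 8.40 CPM for HCT-8 but 19.0 and 22.7 CPM for HCT-8/FU, so both resistant libraries lay well above both parental ones. The log2 fold change was 1.31 (standard error, SE, 0.20, adjusted p = 8.4e-05 in edgeR). No source used here gives the strand setting of the counting, and exons of genes on the opposite strand overlapped 0.571% of the exonic length of PUS7L, none of that of TRUB1 and PUS7, and at most 5.13% of that of any member (RPUSD1). These levels rest on 62 and 284 counts in HCT-8 and 573 and 136 counts in HCT-8/FU.

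TRUB1 (ENSG00000165832) lies on the plus strand of chromosome 10, from 114938195 to 114977676, and encodes the enzyme that modifies the T loop of cytosolic tRNAs and some mRNAs. Its levels were 24.4 and 22.8 CPM in HCT-8 and 42.2 and 46.6 CPM in HCT-8/FU, without overlap. The log2 fold change was 0.91 (SE 0.12, adjusted p = 2.0e-05 in edgeR), the smallest p among the members.

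PUS7 (ENSG00000091127) lies on the minus strand of chromosome 7, from 105439661 to 105522271. It encodes a synthase of tRNAs, tRNA fragments and mRNAs. Levels were 40.5 and 36.5 CPM in HCT-8 and 60.4 and 70.2 CPM in HCT-8/FU, again without overlap. The log2 fold change was 0.76 (SE 0.10, adjusted p = 3.0e-05 in edgeR).

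Of the mitochondrial enzymes, RPUSD4 and TRUB2 were lower in HCT-8/FU by amounts under the fold threshold. RPUSD4 (ENSG00000165526, minus strand of chromosome 11, 126202096 to 126211692), which modifies the large mitochondrial ribosomal RNA, measured 57.8 and 58.4 CPM in HCT-8 and 42.8 and 43.6 CPM in HCT-8/FU. TRUB2 (ENSG00000167112, minus strand of chromosome 9, 128305159 to 128322447), which acts on mitochondrial mRNAs, measured 59.1 and 61.2 CPM in HCT-8 and 45.1 and 45.0 CPM in HCT-8/FU. Both HCT-8/FU libraries lay below both HCT-8 libraries for each gene, and both genes passed the FDR without reaching the fold threshold, with log2 fold changes of −0.43 for RPUSD4 (SE 0.093, adjusted p = 0.0018 in edgeR) and −0.42 for TRUB2 (SE 0.092, adjusted p = 0.0020 in edgeR). Among all tested genes, 18.1% passed the FDR and were lower, against these 2 of the 10 members. RPUSD3, another enzyme of mitochondrial mRNAs, had 21.1 and 21.5 CPM in HCT-8 and 18.0 and 17.0 CPM in HCT-8/FU, a log2 fold change of −0.27 (SE 0.13) that did not pass the FDR.

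The remaining members did not pass the test. PUS1, a synthase of cytosolic and mitochondrial tRNAs whose inherited loss causes myopathy with anemia, had 36.9 and 38.7 CPM in HCT-8 and 30.2 and 31.9 CPM in HCT-8/FU, with an adjusted p of 0.051 in edgeR. PUS3, which modifies the anticodon arm of tRNAs, had 6.19 and 5.11 CPM in HCT-8 and 6.31 and 5.85 CPM in HCT-8/FU, and the groups overlapped. RPUSD1 had 49.5 and 57.0 CPM in HCT-8 and 47.2 and 50.8 CPM in HCT-8/FU, also overlapping. Relative to its level, RPUSD2 had the widest spread of the members within HCT-8/FU, 1.46-fold between replicates. Its 12.2 and 17.9 CPM there lay on both sides of the HCT-8 libraries at 13.4 and 14.7 CPM. In all, 7 of the 10 members did not overlap between the groups, against 65% of tested genes.

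**Figure D2:**
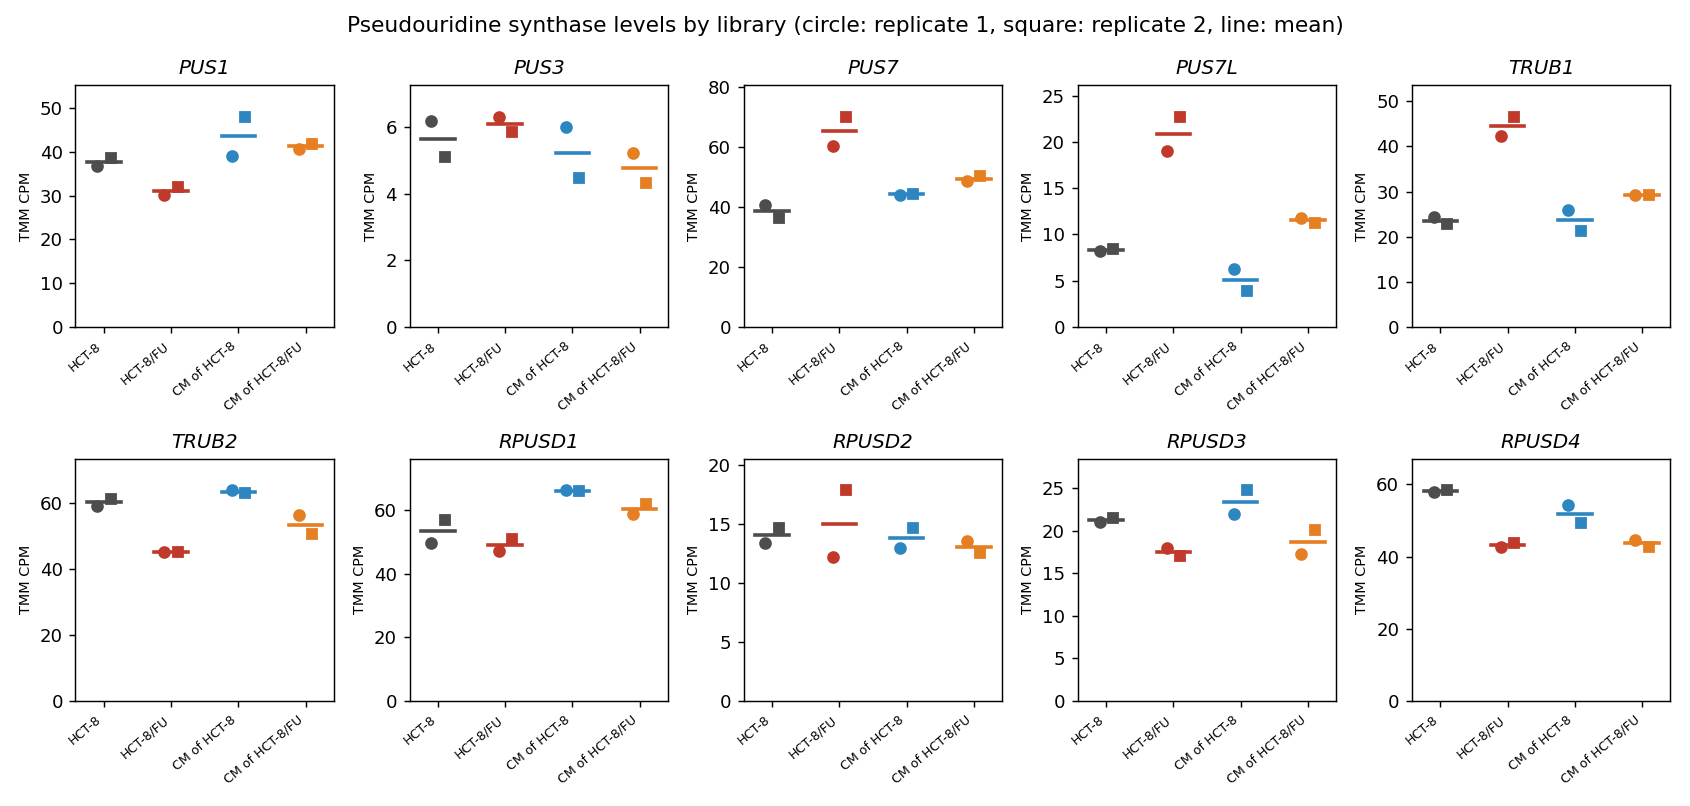
TMM-normalized CPM of each of the 10 genes in the 8 libraries, on linear axes from 0. Circles are replicate 1, squares replicate 2 and lines group means; PUS7L, TRUB1 and PUS7 are highest in HCT-8/FU, TRUB2 and RPUSD4 sit near 45 and 43 CPM there, and PUS7L is lowest in parental CM.

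The 3 increased members had the lowest exonic GC content of the 10 genes, 34.9% in PUS7L, 35.3% in TRUB1 and 41.8% in PUS7, against 44.3% to 66.2% in the others. Across the 10 members the Spearman correlation of GC content with the log2 fold change was −0.64, and across all tested genes it was −0.40, as a description of genes that share the same libraries. When each library was corrected for GC content and gene length, 0 of the 10 members were DE, while 15.3% of all tested genes with a GC content were. The log2 fold changes became 0.52 (SE 0.20) for PUS7L, 0.25 (SE 0.13) for TRUB1 and 0.44 (SE 0.11) for PUS7, of which PUS7 alone remained past the FDR, below the fold threshold. RPUSD4 at −0.36 (SE 0.11) and TRUB2 at −0.32 (SE 0.099) still passed the FDR after the correction. Such a correction takes out whatever part of a change is related to GC content or length. Without any 1 library of the 8 and without the correction, the log2 fold changes were 1.19 to 1.44 for PUS7L, 0.83 to 0.99 for TRUB1 and 0.64 to 0.87 for PUS7. In the 5 libraries with under 15% of records not aligned, only HCT-8 replicate 2 and HCT-8/FU replicate 1 remained of these groups. These 5 libraries thus hold no spread within either group.

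**Figure D3:**
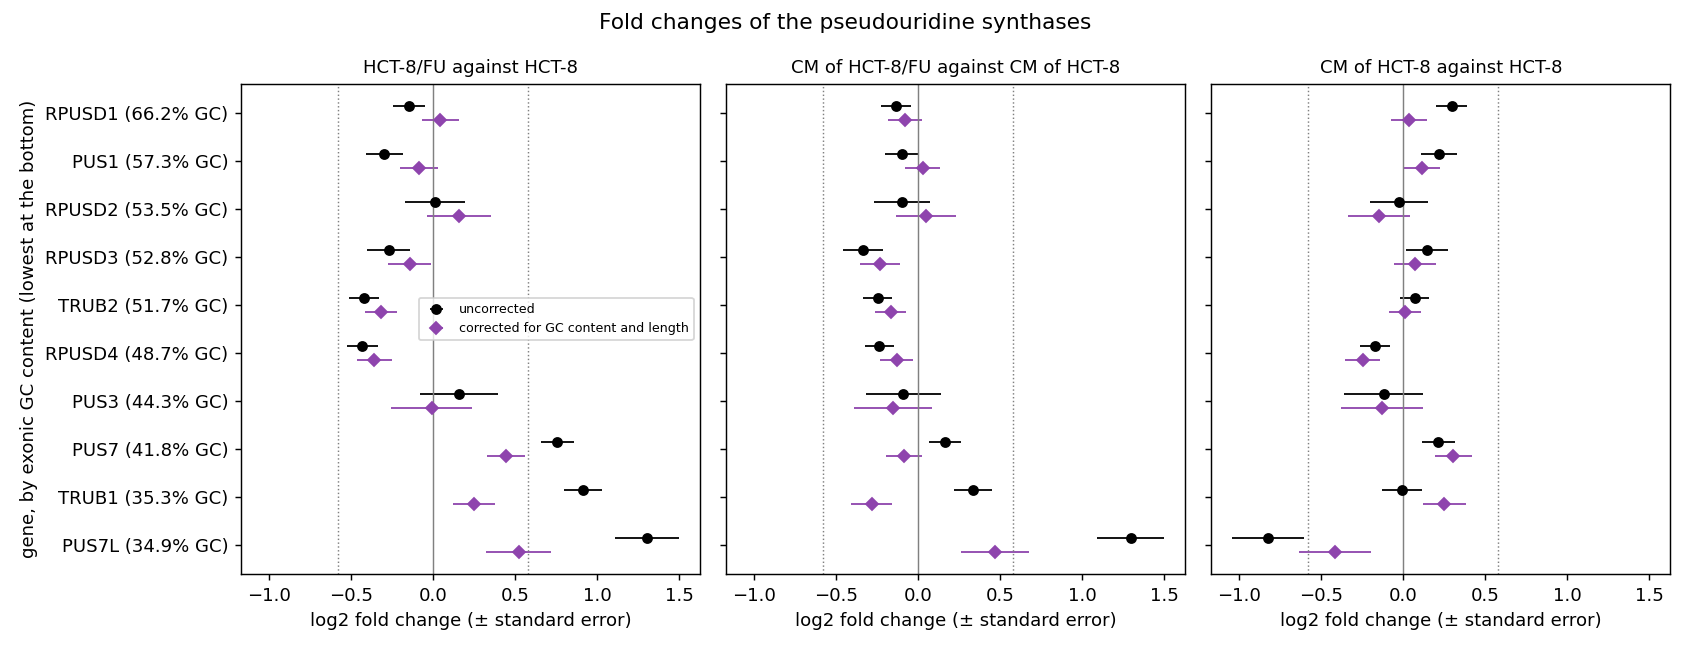
Log2 fold change with its standard error for the 10 genes in 3 comparisons, without (black circles) and with (purple diamonds) the correction for GC content and length; genes are ordered by exonic GC content with the lowest at the bottom and dotted lines mark ±0.58. PUS7L, TRUB1 and PUS7 lie beyond 0.58 in HCT-8/FU against HCT-8 without the correction, and no gene does with it.

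Next, cells in resistant CM were compared with cells in parental CM, to ask whether medium of the resistant cells changed the same enzymes. PUS7L was significantly increased by 2.45-fold, and the other 9 members were not DE. DE and higher was 1 of 10 members, against 7.97% of all tested genes, and DE and lower were 0 of 10, against 1.28%. In either direction 9.25% of tested genes were DE, about the share of the members, and at the FDR alone the same 1 member passed against 19.7%. At an unadjusted p under 0.05, 2 members were higher and 3 lower (edgeR), and DESeq2 called PUS7L alone. The median log2 fold change of the members was −0.10, beside −0.06 for all tested genes.

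PUS7L measured 6.22 and 3.84 CPM in parental CM, from 54 and 102 counts, and 11.8 and 11.2 CPM in resistant CM, from 368 and 346 counts. Both libraries of resistant CM thus exceeded both of parental CM, whose own replicates differed by 1.62-fold. The log2 fold change was 1.29 (SE 0.21, adjusted p = 0.00036 in edgeR). It was 0.89 without parental CM replicate 2 and 0.47 (SE 0.21) with the correction for GC content and length, where the call was lost.

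TRUB1 had 26.0 and 21.4 CPM in parental CM and 29.3 CPM in both libraries of resistant CM. The log2 fold change of 0.33 (SE 0.11) missed the FDR (adjusted p = 0.054 in edgeR), and with the correction for GC content and length it was −0.28. PUS7 had 44.2 and 44.3 CPM against 48.6 and 50.4 CPM, a log2 fold change of 0.16 (SE 0.097) that turned to −0.09 with the correction. TRUB2, RPUSD4 and RPUSD3 had log2 fold changes of −0.25 (SE 0.087), −0.24 (SE 0.089) and −0.34 (SE 0.12), each with lower levels in both libraries of resistant CM, and none passed the FDR. PUS1, PUS3, RPUSD1 and RPUSD2 lay between −0.13 and −0.09. The groups did not overlap for 7 of the 10 members, against 61.4% of tested genes.

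Whether a member changed by another amount in the resistant line than under its medium was tested as the difference of both log2 fold changes, which share no library. This difference was 0.60 for PUS7 (SE 0.14, adjusted p = 0.012 in edgeR) and 0.58 for TRUB1 (SE 0.16, adjusted p = 0.032 in edgeR), both larger in HCT-8/FU. These were 2 of 10 members, against 11.6% of tested genes. Neither passed the FDR without HCT-8 replicate 2, HCT-8/FU replicate 2 or either replicate of resistant CM. With the correction for GC content and length neither passed it, while the difference was 0.53 for both. TRUB1 was also lost without HCT-8 replicate 1, HCT-8/FU replicate 1 or parental CM replicate 1, in DESeq2 (0.56) and with DESeq2's size factors (0.55). For PUS7L the difference was 0.01 (SE 0.30).

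Parental CM was compared with HCT-8 without CM, to see the cells in medium conditioned by their own line. PUS7L was decreased there, from 8.16 and 8.40 CPM in HCT-8 to 6.22 and 3.84 CPM, with a log2 fold change of −0.82 (SE 0.22, adjusted p = 0.016 in edgeR). It was the only DE member, 1 of 10 against 4.29% of tested genes that were DE and lower and 8.15% in either direction. The call was lost without HCT-8 replicate 2 (−0.87), without parental CM replicate 2 (−0.42), with the compared groups alone in the fit (−0.78) and with the correction for GC content and length (−0.42). At the FDR alone, 2 of the members passed against 19.4% of tested genes. RPUSD1 rose from 49.5 and 57.0 CPM to 66.2 and 65.9 CPM and passed the FDR alone, with a log2 fold change of 0.30 (SE 0.094, adjusted p = 0.039 in edgeR), and 9.04% of tested genes were higher at this FDR. It missed the FDR without HCT-8 replicate 1 (0.21), HCT-8 replicate 2 (0.35), parental CM replicate 2 (0.29) or either replicate of resistant CM (0.30 for both), and it was 0.04 with the correction. Across the 10 members the Spearman correlation of GC content with the log2 fold change was 0.64 here, opposite in sign to that of the comparisons above, and 0.30 over all tested genes. The groups did not overlap for 7 of the 10 members, against 54.3% of tested genes.

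Resistant CM was last compared with HCT-8 without CM, a comparison that shares the HCT-8 libraries with those of HCT-8/FU and parental CM and its other libraries with the comparison of both media. None of the 10 members was DE, against 10.4% of tested genes, with 4 at an unadjusted p under 0.05 in edgeR and 0 DE in DESeq2. At the FDR alone, 3 members passed, against 24.7% of tested genes, and the groups did not overlap for 8 members, against 65.7%. RPUSD4 fell to 44.7 and 42.7 CPM, from 57.8 and 58.4 CPM in HCT-8, with a log2 fold change of −0.41 (SE 0.088, adjusted p = 0.0031 in edgeR). Its value in HCT-8/FU relative to HCT-8 was −0.43, and in parental CM against HCT-8 it was −0.17 (SE 0.091). PUS7L had 11.8 and 11.2 CPM against 8.16 and 8.40 CPM in HCT-8, a log2 fold change of 0.47 (SE 0.19) that missed the FDR (adjusted p = 0.089 in edgeR, 0.014 to 0.90 across alternatives), and it was 0.05 with the correction for GC content and length. PUS7 rose by 0.38 (SE 0.099, adjusted p = 0.011 in edgeR) and TRUB1 by 0.33 (SE 0.11, adjusted p = 0.0496 in edgeR) on the log2 scale. With the correction for GC content and length these became 0.22 and −0.03, neither past the FDR, and RPUSD4 stayed past it at −0.38. PUS7 missed the FDR without HCT-8 replicate 2 (0.28) or either replicate of resistant CM (0.40 and 0.35), TRUB1 without any 1 library of HCT-8, HCT-8/FU or resistant CM, and RPUSD4 without resistant CM replicate 2 (−0.38).

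Pairs of members varied in the same or in opposite directions across the 8 libraries, given here as a description since all genes of a library have its depth and its relation to GC content in common. The Pearson correlation of log2 CPM was 0.942 between PUS7 and TRUB1, 0.923 between PUS7L and TRUB1, 0.854 between PUS1 and RPUSD1 and 0.790 between TRUB2 and RPUSD4. It was −0.935 between TRUB1 and TRUB2, −0.930 between PUS7L and RPUSD3, −0.914 between PUS7L and TRUB2, and −0.892 between PUS7 and TRUB2. Next in size were −0.842 between TRUB1 and RPUSD3 and −0.838 between PUS1 and PUS7L. The protein-coding genes most like TRUB1, among 10872 with a mean of at least 5 CPM, were HNRNPU (0.995), PPM1A (0.992), UBE2K (0.991), SUB1 (0.991) and CD47 (0.988).

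The other genes of pseudouridylation and of uridine modification were taken as lists. The 3 further synthases were PUSL1, PUS10 and DKC1, and PUSL1 was DE in no comparison. PUS10, which acts on tRNAs and takes part in microRNA processing, was DE and higher in HCT-8/FU. It had 2.50 and 3.07 CPM in HCT-8 and 5.88 and 9.69 CPM in HCT-8/FU. Its log2 fold change was 1.35 (SE 0.32, adjusted p = 0.0035 in edgeR), and it was 0.65 (SE 0.33) and not called with the correction for GC content and length, its GC content being 35.7%. In resistant CM against parental CM it was also DE and higher, with 3.11 and 2.15 CPM against 5.81 and 3.96 CPM and a log2 fold change of 0.97 (SE 0.32, adjusted p = 0.043 in edgeR). That call was lost without parental CM replicate 2 (0.66), resistant CM replicate 1 (0.65), HCT-8 replicate 1 (0.97) or HCT-8 replicate 2 (1.03), in DESeq2 (0.98), with the compared groups alone (1.06), with the replicate block (0.96), and with the correction (0.27).

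DKC1, the catalytic protein of the H/ACA particles, was DE in no comparison, but passed the FDR alone in some. Its levels were 79.1 and 77.3 CPM in HCT-8, 81.4 and 97.6 CPM in HCT-8/FU, 103 and 98.8 CPM in parental CM, and 80.9 and 79.3 CPM in resistant CM. Both libraries of parental CM were thus the highest. Its log2 fold change was 0.37 in parental CM against HCT-8 (SE 0.091, adjusted p = 0.0098 in edgeR) and −0.33 in resistant CM against parental CM (SE 0.088, adjusted p = 0.015 in edgeR). Neither of these changes between groups was examined with the correction for GC content and length. The difference between the log2 fold changes of DKC1 in the resistant line and under the resistant medium was 0.51 (SE 0.13, adjusted p = 0.017 in edgeR).

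Of the 5 H/ACA partner and assembly proteins NOP10, NHP2, GAR1, NAF1 and SHQ1, 0 were DE in HCT-8/FU against HCT-8, with 1 at an unadjusted p under 0.05 (edgeR). NOP10 was DE and lower in resistant CM against parental CM, at 35.4 and 35.3 CPM against 70.9 and 42.0 CPM, with a log2 fold change of −0.64 (SE 0.20, adjusted p = 0.034 in edgeR). The level in parental CM replicate 1 stood apart, and without this library the log2 fold change was −0.25 and not called. It was also not called without HCT-8 replicate 2 (−0.58) or either replicate of resistant CM (−0.64 for both), in DESeq2 (−0.64), with DESeq2's size factors (−0.60) or with the compared groups alone (−0.55). Among 19 alternatives the call of NOP10 was lost in 10, not all of them named here. Parental CM replicate 1 also had the largest share of records not aligned, 29.6%.

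FASTKD2, which works beside TRUB2, RPUSD3 and RPUSD4 in mitochondrial RNA granules, was DE and higher in resistant CM against parental CM, at 34.1 and 30.4 CPM against 20.3 and 22.0 CPM. The log2 fold change was 0.60 (SE 0.12, adjusted p = 0.0018 in edgeR). It was 0.04 with the correction for GC content and length, 0.55 without parental CM replicate 1 and 0.52 without resistant CM replicate 1, none of which reached the threshold. Among 19 alternatives the call of FASTKD2 was lost in 6. FASTKD2 had 24.8 and 29.2 CPM in HCT-8. Against HCT-8 its log2 fold change was −0.37 in parental CM (adjusted p = 0.046 in edgeR) and 0.23 in resistant CM (adjusted p = 0.16 in edgeR). In HCT-8/FU it was 0.43 (adjusted p = 0.0096 in edgeR), under the fold threshold. The FASTKD2 partners NGRN and RCC1L were DE in none of the comparisons. NGRN was lower at the FDR alone in HCT-8/FU against HCT-8 (log2 fold change −0.37, adjusted p = 0.0040 in edgeR). The same held for resistant CM against parental CM (−0.30, adjusted p = 0.022 in edgeR) and against HCT-8 (−0.35, adjusted p = 0.0068 in edgeR). Exons of other genes on the same strand overlapped 45.0% of the exonic length of NGRN, and how this affected its counts was not tested. Of the 6 other enzymes acting on RNA uridines, TRMT2A, TRMT2B, DUS1L, DUS2, DUS3L and DUS4L, 0 were DE in any comparison of groups. In each, 1 to 2 of them had an unadjusted p under 0.05 in edgeR. At the FDR alone, DUS3L was lower in HCT-8/FU against HCT-8 (log2 fold change −0.36, adjusted p = 0.030 in edgeR). DUS1L was higher at the FDR alone in parental CM against HCT-8 (0.48, adjusted p = 0.0016 in edgeR). Exonic GC content was 64.7% in DUS1L and 64.0% in DUS3L. Changes between groups of these listed genes at the FDR alone were not examined with the correction for GC content and length.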

How the data were processed

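RNA-seq libraries of HCT-8, HCT-8/FU and HCT-8 in either CM (2 each) were analysed from deposited counts per Ensembl gene. The authors' processing notes name HISAT2, SAMtools 1.18, HTSeq 0.11.2 and DESeq2 1.30.0, and the paper names an Ensembl GRCh38 annotation for the counting. No source used here gives the strand setting. Culture media differ between the paper and the labels. Records that named no gene (59.2% to 70.3% per library) were left out. The authors' tables of fold changes and p-values were not used.

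Tests were run on these counts by edgeR 4.0.16 under R 4.3.3 (TMM with HCT-8 replicate 2 as reference, filterByExpr, quasi-likelihood test on all 4 groups, Benjamini-Hochberg adjustment), and DESeq2 1.42.0 as an alternative. A DE gene had an FDR not above 0.05 and a log2 fold change of 0.58 or more in size. Lengths, GC content and positions came from GENCODE 44, which held 56105 of the 64253 identifiers, and promoters from RefSeq. The GC and length correction used 19857 tested genes. All members were named, other genes of the lists where called in a comparison, and the 5 genes most like the member with the smallest p. The members and lists were chosen with earlier results of these data known. The scripts were tested on simulated data. Other normalizations, filters, fits and leaving out each library were tried as alternatives.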

Additional observations from a re-analysis of the deposited data

Results flagged for a closer look

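Each gene here changed by a different amount with all libraries in the resistant line and under its medium, by the test of that difference (edgeR, Benjamini-Hochberg adjusted). These were 2 of 10 members and 1 of 3 further synthases, against 11.6% of all tested genes. Of the 5 H/ACA partner and assembly proteins, 0 passed this test. Also 0 passed among FASTKD2, NGRN and RCC1L and among the 6 other enzymes acting on RNA uridines. For PUS7 the log2 fold change was 0.76 in HCT-8/FU against HCT-8 and 0.16 in resistant CM against parental CM, a difference of 0.60. For TRUB1 the values were 0.91 and 0.33, a difference of 0.58. For DKC1 they were 0.18 and −0.33, a difference of 0.51, and both libraries of parental CM held its highest levels. With the correction for GC content and length the differences were 0.53, 0.53 and 0.50, none past the FDR. Of 18 alternatives, the difference missed the FDR in 6 for PUS7, 11 for TRUB1 and 7 for DKC1. For PUS7 these included leaving out HCT-8 replicate 2 (0.42), HCT-8/FU replicate 2 (0.49) or either replicate of resistant CM (0.56 and 0.61). For TRUB1 they included DESeq2 (0.56), DESeq2's size factors (0.55) and leaving out any 1 library (0.43 to 0.65) other than parental CM replicate 2. The difference of DKC1 was also not past it without HCT-8 replicate 1 (0.52), HCT-8 replicate 2 (0.41), HCT-8/FU replicate 2 (0.38) or either replicate of resistant CM (0.52 and 0.49). With 2 libraries per group, no group was large enough to test for a library far from the others.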

How the results depend on the processing

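The members called in HCT-8/FU against HCT-8 were 3 and those called in resistant CM against parental CM were 1 under every alternative except those named next. With the correction for GC content and length, alone or with the replicate block, 0 members were called in HCT-8/FU against HCT-8, 0 in resistant CM against parental CM, 0 in parental CM against HCT-8 and 0 for the difference between the resistant line and its medium, and the cause was not tested. At the FDR without the fold threshold, 5, 2 and 3 members passed in HCT-8/FU, parental CM and resistant CM, each against HCT-8. The call of PUS7L in parental CM against HCT-8 (1 member) gave 0 with the compared groups alone, where fewer samples estimate the spread, and 0 to 1 without 1 library each. The difference between the resistant line and its medium was past the FDR for 1 member with DESeq2's size factors, for 1 in DESeq2 itself and for 0 to 2 without 1 library each. Libraries with the same replicate number deviated together little (correlations of −0.086 to 0.132 between compared groups), so no pairing by number was seen. This cannot exclude libraries handled together under different numbers. With the replicate block the calls were 3, 1, 1 and 0 in the order of the report and 2 for the difference. The alternative with only the 5 libraries was chosen after seeing the data. It left HCT-8, HCT-8/FU and parental CM with 1 library each, assumed to vary like the others. In all, 60 values changed sign, none of them a called one, and 64 values that were called kept their sign but lost the call. With no filter on low counts, the reversed log2 values were −0.016 for RPUSD2 in HCT-8/FU against HCT-8, −0.046 for PUS7L in the difference between the resistant line and its medium. With the correction for GC content and length, the reversed log2 values were −0.0097 for PUS3 and 0.044 for RPUSD1 in HCT-8/FU against HCT-8, 0.027 for PUS1, −0.088 for PUS7, −0.28 for TRUB1 and 0.048 for RPUSD2 in resistant CM against parental CM, 0.25 for TRUB1 in parental CM against HCT-8, −0.035 for TRUB1 and −0.045 for RPUSD1 in resistant CM against HCT-8, 0.12 for RPUSD1 in the difference between the resistant line and its medium. With that correction and the replicate block, the reversed log2 values were −0.076 for PUS3 and 0.054 for RPUSD1 in HCT-8/FU against HCT-8, 0.035 for PUS1, −0.085 for PUS7, −0.28 for TRUB1 and 0.065 for RPUSD2 in resistant CM against parental CM, 0.25 for TRUB1 in parental CM against HCT-8, −0.035 for TRUB1 and −0.040 for RPUSD1 in resistant CM against HCT-8, 0.13 for RPUSD1 in the difference between the resistant line and its medium. With a model term marking libraries whose not aligned share exceeded 15%, the reversed log2 values were −0.017 for RPUSD2 in HCT-8/FU against HCT-8, 0.0042 for PUS3 in resistant CM against parental CM, −0.14 for PUS7L in the difference between the resistant line and its medium. In only the 5 libraries with under 15% of records not aligned, the reversed log2 values were −0.27 for RPUSD2 in HCT-8/FU against HCT-8, 0.090 for PUS3 in resistant CM against parental CM, −0.41 for PUS7L and −0.10 for RPUSD2 in the difference between the resistant line and its medium. With the compared groups alone, the reversed log2 values were 0.00078 for TRUB1 in parental CM against HCT-8. With DESeq2's size factors, the reversed log2 values were −0.017 for PUS7L in the difference between the resistant line and its medium. At a mean normalized count of at least 10, the reversed log2 values were 0.0021 for RPUSD1 in the difference between the resistant line and its medium. With the replicate block, the reversed log2 values were 0.0015 for RPUSD1 in the difference between the resistant line and its medium. Without 1 library each, values that reversed ranged from −0.22 to 0.32 for RPUSD2 and −0.037 to 0.26 for PUS3 in HCT-8/FU against HCT-8, −0.32 to 0.091 for PUS3, −0.22 to 0.082 for PUS1 and −0.16 to 0.011 for RPUSD2 in resistant CM against parental CM, −0.13 to 0.15 for TRUB1, −0.13 to 0.041 for RPUSD2 and −0.36 to 0.12 for PUS3 in parental CM against HCT-8, −0.30 to 0.39 for PUS7L, −0.0096 to 0.48 for PUS3, −0.11 to 0.039 for RPUSD1, −0.055 to 0.16 for RPUSD3 and −0.13 to 0.42 for RPUSD2 in the difference between the resistant line and its medium. No alternative moved the median log2 fold change of all genes by over 0.1. With 2 libraries per group and as few as 35 counts of PUS3 and 54 of PUS7L in a library, small changes of the low members were not detectable at this depth.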
